A study of Homo sapiens with 12 samples.

Results

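CCND1, CCNE1, E2F2 and SERTAD1 are 4 genes that act on the step from G1 into S phase, and their transcripts were followed in cultured SK-N-BE(2) neuroblastoma cells after inhibition of BET bromodomain proteins, of histone deacetylases, or of both. The genes were picked by symbol in the array's probe annotation. Each had 1 transcript cluster, the set of probes that the array design gives to 1 transcribed locus, so the account covers 4 of 14884 named genes and 4 of 53617 clusters. The 4 groups were cells given 1 µM JQ1 together with 10 nM panobinostat (called the combination below), cells given 1 µM JQ1, cells given 10 nM panobinostat, and vehicle control cells, all for 6 h and with 3 Affymetrix Human Gene 2.0 ST arrays each. JQ1 blocks the acetyl-lysine pockets of BET proteins, and panobinostat inhibits histone deacetylases. The cells are 1 established MYCN-amplified line grown in serum, each compound was used at 1 dose and 1 time, and nothing in the labels says whether replicates were separate cultures, so the p-values rest on a spread that may be technical.

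Cells leave G1 when D-type cyclins with CDK4 or CDK6, and then E-type cyclins with CDK2, phosphorylate the retinoblastoma protein and its relatives. These pocket proteins otherwise hold E2F transcription factors in check, and the freed E2F1 to E2F3 activate genes of nucleotide synthesis and DNA replication. SERTAD1 is a SERTA domain protein that binds CDK4 and stimulates transcription by E2F and its DP partners. Cyclin D1 is abundant in many neuroblastomas, and the genes of cyclin E1 and of E2F2 are themselves textbook E2F targets.

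Promoter sequence was at hand for CCNE1, E2F2 and SERTAD1, 3 of the 4 genes, from RefSeq on GRCh38.p14, and it is shown because E2F2 and CCNE1, both known as E2F-responsive, moved in opposite directions below. The 250 bases before the annotated start are printed 5′ to 3′ on the gene's strand, chr1:23531234-23531483 on the minus strand for E2F2, chr19:29811741-29811990 on the plus strand for CCNE1 and chr19:40425993-40426242 on the minus strand for SERTAD1. Capitals mark the E2F motif in E2F2 and GC boxes in CCNE1 and SERTAD1.
E2F2: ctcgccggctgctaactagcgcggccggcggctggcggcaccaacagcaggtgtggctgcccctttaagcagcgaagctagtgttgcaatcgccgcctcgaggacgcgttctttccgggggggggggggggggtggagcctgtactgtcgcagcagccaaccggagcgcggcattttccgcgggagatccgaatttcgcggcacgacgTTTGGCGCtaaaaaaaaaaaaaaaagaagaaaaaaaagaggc
CCNE1: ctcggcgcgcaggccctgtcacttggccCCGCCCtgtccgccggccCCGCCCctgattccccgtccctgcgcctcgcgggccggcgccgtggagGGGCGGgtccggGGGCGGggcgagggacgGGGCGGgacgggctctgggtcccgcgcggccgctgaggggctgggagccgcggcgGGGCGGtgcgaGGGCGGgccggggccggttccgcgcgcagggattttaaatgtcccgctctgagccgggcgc
SERTAD1: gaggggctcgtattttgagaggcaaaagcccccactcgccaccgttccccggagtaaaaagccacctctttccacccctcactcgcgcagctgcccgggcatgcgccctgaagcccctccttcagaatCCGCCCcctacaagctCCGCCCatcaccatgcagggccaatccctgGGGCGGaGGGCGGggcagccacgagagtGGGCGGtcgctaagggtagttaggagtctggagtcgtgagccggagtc

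The E2F motif was searched on both strands as TTTCCCGC, TTTCGCGC, TTTGCCGC and TTTGGCGC, and the window of E2F2 held 1 match, TTTGGCGC, starting 42 bases before the start, while the windows of CCNE1 and SERTAD1 held 0. The absence says only that these letters are not in those windows. Of 35116 promoter windows of the same length, 2.79% held one. The GC box, GGGCGG on either strand, matched 7 times in CCNE1, 5 times in SERTAD1 and 0 times in E2F2. At least 1 match occurred in 42.6% of windows, a share that gives no background for the number of matches. The windows were 81.2% G or C in CCNE1, 64.8% in SERTAD1 and 60.8% in E2F2, and the counts were not compared with windows of like content. SERTAD1 also held 1 CCAAT box (letters CCAAT, in 32.0% of windows). The E-box CACGTG, the cyclic AMP response element TGACGTCA, the AP-1 motif TGANTCA and the TATA box TATAAA, found in 6.34%, 1.65%, 6.57% and 10.7% of windows, had 0 matches in these 3 windows. A match is only a run of letters, and the arrays measured no binding.

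The values are taken as log2 signals, which is read from their range of 1.391 to 14.1, since the log base is not stated in the sources used here. Array medians ran from 6.119 to 6.292, and arrays correlated at 0.991 to 0.995 within groups and 0.962 to 0.989 between them. The cells carried the adrenergic neuroblastoma markers: all 10 measured of 12 listed lay above the median gene, with a list mean of 10.17 to 10.19 on combination arrays, 10.79 to 10.82 on JQ1 arrays, 10.39 to 10.43 on panobinostat arrays and 10.87 to 10.90 on vehicle arrays. These markers, which moved with the treatments, were not tested for a part in the results below. Fewer markers of other cells were measured, 2 of 6 listed for blood, 4 of 5 for epithelium and 3 of 8 for stroma. Of these, 0 blood genes, 1 epithelial gene (KRT18) and 1 stromal gene (LUM) lay above the median gene. LUM was bright, at 11.40 with the combination, 11.48 with JQ1, 11.73 with panobinostat and 11.81 with vehicle. In each group that was above the adrenergic list mean, and the unmeasured markers leave other cells only partly checked. The list means on combination and vehicle arrays were 5.70 to 5.93 and 5.57 to 5.87 for blood, 6.95 to 7.02 and 7.004 to 7.09 for epithelium, and 7.60 to 7.89 and 7.85 to 8.11 for stroma. On JQ1 and panobinostat arrays they were 5.45 to 5.54 and 5.66 to 5.80 for blood, 6.89 to 7.07 and 6.82 to 7.04 for epithelium, and 7.72 to 7.95 and 7.78 to 7.97 for stroma. In such bulk RNA, fewer cells in a cycle phase and less RNA per cell cannot be told apart.

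The first question was how each gene stood in the 4 groups. Each answered in its own way: CCND1 fell with panobinostat and further with the combination, CCNE1 rose mainly with panobinostat, E2F2 fell with either compound and more with both, and SERTAD1 rose wherever JQ1 was present. Differences are log2 ± SE from limma, fitted on all 12 arrays, with 3 arrays per group and p-values adjusted by the Benjamini-Hochberg method over all 14884 genes. A gene is said to have changed where the adjusted p was under 0.05. With 3 arrays a side, the smallest two-sided p of an exact permutation test is 0.1, so none was run.

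**Figure D1:**
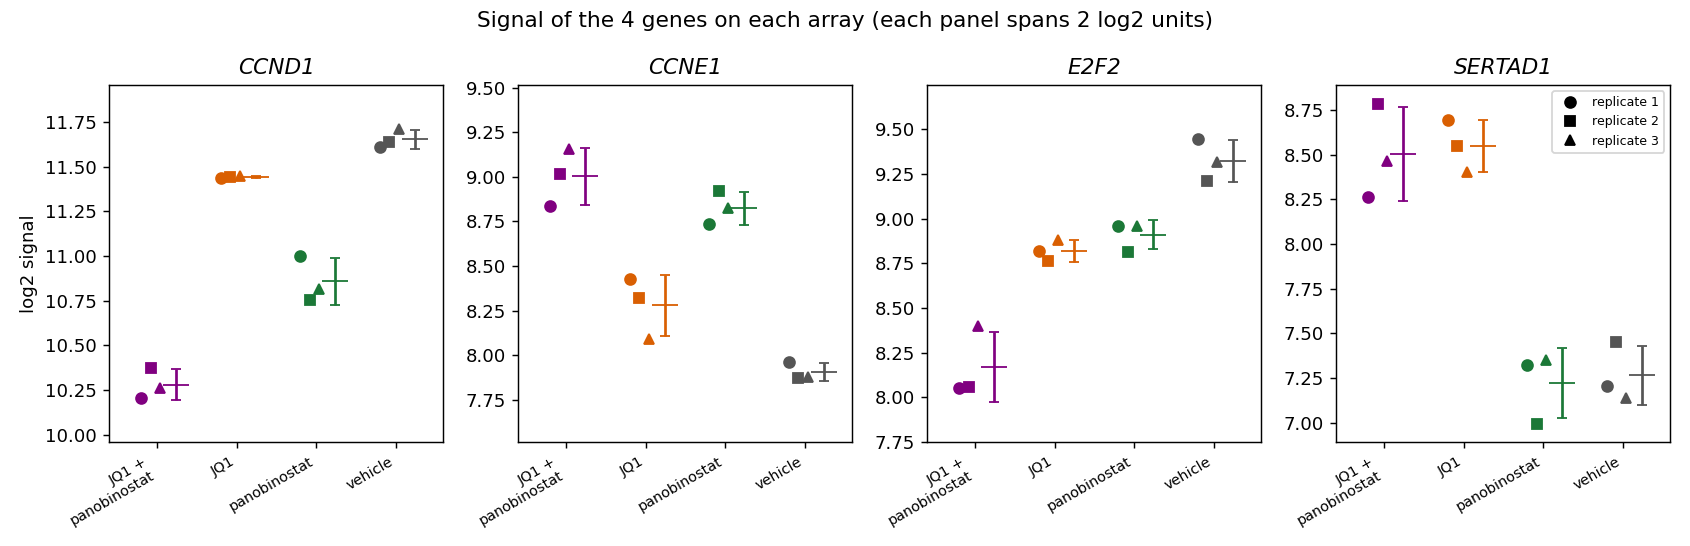
Log2 signal of CCND1, CCNE1, E2F2 and SERTAD1 on each of the 12 arrays, by group; symbols are single arrays, and the bar beside them is the group mean ± SD (n = 3). CCND1 is lowest with the combination and next lowest with panobinostat, with JQ1 and vehicle not separated by the test, CCNE1 is highest with the combination and panobinostat, the combination arrays of E2F2 lie below all others, and SERTAD1 splits into arrays with and without JQ1.

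CCND1 (cluster 16728261) encodes cyclin D1, the D-type cyclin that starts phosphorylation of the retinoblastoma protein. Its log2 signal was 10.20, 10.38 and 10.26 on combination arrays, against 11.61, 11.64 and 11.71 on vehicle arrays. It was 11.44, 11.44 and 11.45 with JQ1 and 11.00, 10.76 and 10.82 with panobinostat. The 4 groups did not overlap at any point, and their order by mean was vehicle highest, then JQ1, panobinostat and the combination.

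The combination lowered CCND1 2.59-fold (log2 difference -1.37 ± 0.08, 95% interval -1.54 to -1.21, adjusted p = 1.28e-07 in limma). Panobinostat alone lowered it 1.74-fold (-0.80 ± 0.08, adjusted p = 2.04e-05). With JQ1 alone the difference was -0.21 ± 0.08 (interval -0.38 to -0.04), and although all 3 JQ1 arrays were below all 3 vehicle arrays it did not pass (adjusted p = 0.0861, and 0.0171 to 0.231 over the other settings). It passed when dim genes were left out (adjusted p = 0.0397) and with a mean-dependent, robust variance (adjusted p = 0.0171). CCND1 thus has 1 pair of neighbours in its order, JQ1 and vehicle, that was not separated by the test. The combination was lower than JQ1 (-1.16 ± 0.08, adjusted p = 1.96e-06) and lower than panobinostat (-0.58 ± 0.08, adjusted p = 0.000587), and JQ1 was higher than panobinostat (0.59 ± 0.08, adjusted p = 0.000264). Against JQ1, 0.464% of all genes lay as far below or farther.

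CCNE1 (cluster 16860418) encodes cyclin E1, the CDK2 partner of late G1. It went the opposite way, with 8.84, 9.01 and 9.16 on combination arrays, against 7.97, 7.87 and 7.88 on vehicle arrays. JQ1 arrays gave 8.43, 8.32 and 8.09, and panobinostat arrays 8.73, 8.92 and 8.82. All 9 arrays with a compound were above the 3 vehicle arrays, and combination and panobinostat arrays overlapped.

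CCNE1 rose 2.14-fold with the combination (1.10 ± 0.10, adjusted p = 5.19e-06) and 1.89-fold with panobinostat (0.92 ± 0.10, adjusted p = 5.3e-05). The rise with JQ1 was 1.30-fold (0.37 ± 0.10, adjusted p = 0.0255). This JQ1 call depended on the arrays in the fit: it was lost without JQ1 replicate 1 (0.30), JQ1 replicate 2 (0.35), vehicle replicate 2 (0.36) or vehicle replicate 3 (0.36), at adjusted p-values of 0.0748 to 0.102, and also when arrays were centred on their medians (0.38, adjusted p = 0.0545). The combination was above JQ1 (0.72 ± 0.10, adjusted p = 0.000342) but was not separated from panobinostat (0.18 ± 0.10, interval -0.05 to 0.40, adjusted p = 0.3). JQ1 was below panobinostat (-0.54 ± 0.10, adjusted p = 0.00253). In the order combination, panobinostat, JQ1, vehicle, only the first pair of neighbours failed the test.

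E2F2 (cluster 16683358), one of the activating E2F factors, had 8.05, 8.06 and 8.40 on combination arrays, against 9.44, 9.21 and 9.32 on vehicle arrays. It was 8.82, 8.76 and 8.88 with JQ1 and 8.96, 8.82 and 8.96 with panobinostat. Every combination array was below every other array, and the JQ1 and panobinostat arrays overlapped each other and lay below vehicle.

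The combination lowered E2F2 2.23-fold (-1.15 ± 0.10, adjusted p = 3.04e-06), JQ1 1.42-fold (-0.51 ± 0.10, adjusted p = 0.00463) and panobinostat 1.33-fold (-0.41 ± 0.10, adjusted p = 0.00839). The combination was lower than JQ1 (-0.65 ± 0.10, adjusted p = 0.000606) and than panobinostat (-0.74 ± 0.10, adjusted p = 0.000655). JQ1 and panobinostat were not separated (-0.09 ± 0.10, interval -0.31 to 0.13, adjusted p = 0.576). Of all genes, 0.934% fell as far or farther when JQ1 was added to panobinostat.

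SERTAD1 (cluster 16872443) had 8.26, 8.79 and 8.46 on combination arrays and 8.70, 8.55 and 8.40 on JQ1 arrays. Panobinostat arrays gave 7.32, 6.996 and 7.35, against 7.21, 7.45 and 7.14 on vehicle arrays. The 6 arrays with JQ1 were all above the 6 without it, and within either set the 2 groups overlapped.

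SERTAD1 rose 2.44-fold with JQ1 (1.28 ± 0.15, adjusted p = 0.000124) and 2.36-fold with the combination (1.24 ± 0.15, adjusted p = 3.11e-05). With panobinostat it was at -0.04 ± 0.15 against vehicle (interval -0.36 to 0.27, adjusted p = 0.865). The combination did not separate from JQ1 (-0.05 ± 0.15, interval -0.36 to 0.27, adjusted p = 0.861) and was above panobinostat (1.28 ± 0.15, adjusted p = 0.000241), as was JQ1 (1.33 ± 0.15, adjusted p = 8.59e-05). Counting rises only, over the 14884 genes, the rise with JQ1 ranked 14 by size and that of the combination over panobinostat ranked 6. SERTAD1 had the widest SE of the 4 genes, and its arrays spread by an SD of 0.26 within the combination and 0.15 within JQ1.

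**Figure D2:**
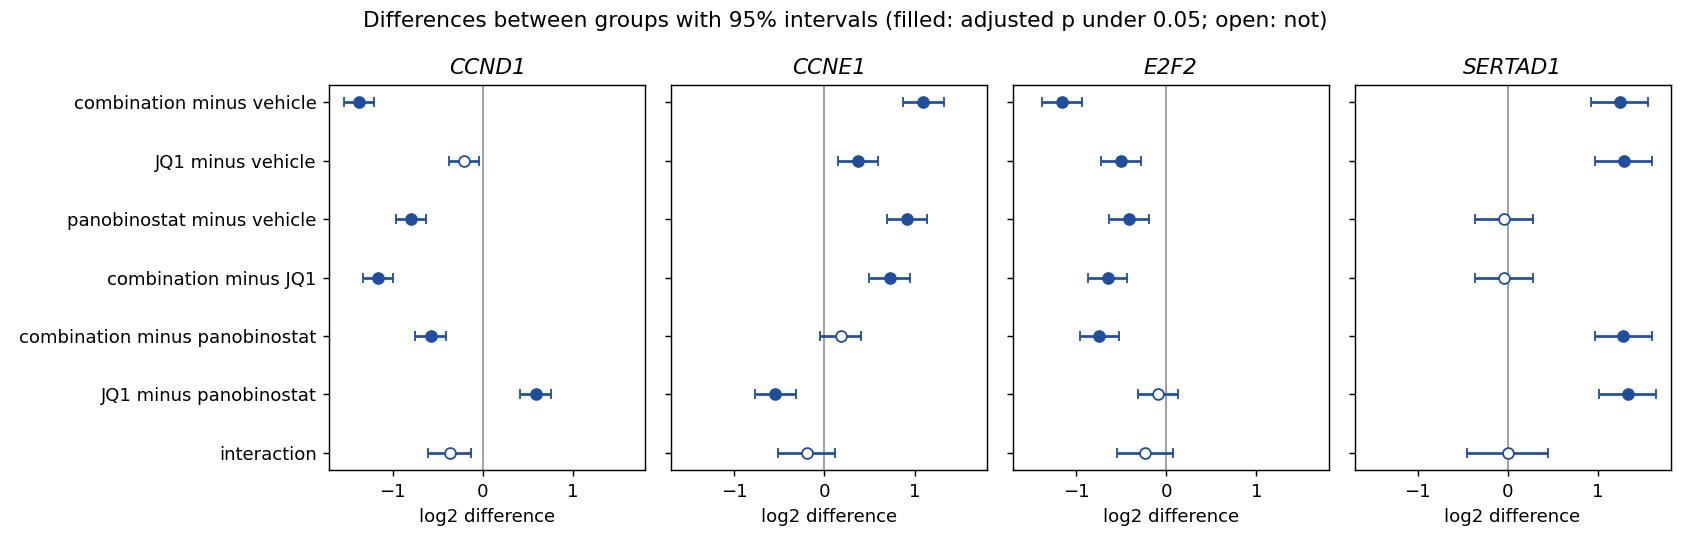
Log2 differences of the 4 genes in the 6 comparisons between groups and in the interaction, with 95% intervals from limma (horizontal axis, log2); filled circles passed an adjusted p of 0.05 and open circles did not. No interaction passed, and the open circles among the comparisons are CCND1 for JQ1 against vehicle (-0.21), CCNE1 for the combination against panobinostat (0.18), E2F2 for JQ1 against panobinostat (-0.09), and SERTAD1 for panobinostat against vehicle (-0.04) and the combination against JQ1 (-0.05).

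Counted by comparison, 4 of the 4 genes changed with the combination (2 higher and 2 lower), where 37.7% of all genes were called. With JQ1 3 changed (2 higher and 1 lower), against 17.6% of all genes, and with panobinostat 3 (1 higher and 2 lower), against 29.3%. Between the combination and JQ1 3 differed (1 higher and 2 lower), against 25.6%, between the combination and panobinostat 3 (1 higher and 2 lower), against 14.7%, and between JQ1 and panobinostat 3 (2 higher and 1 lower), against 23.3%. The arrays of the groups did not overlap for 4 of the 4 genes with the combination and with JQ1 against vehicle (46.1% and 33.5% of all genes) and for 3 with panobinostat (39.8%). CCND1 and E2F2 were lower with the combination than in each of the other 3 groups, as were 4.58% of all genes. E2F2 fell with every treatment (5.79% of all genes did) and CCNE1 rose with every treatment (4.27%). With so few genes, chosen with earlier results known, these counts describe the 4 genes and no class of genes. The 3 comparisons with vehicle share the same vehicle arrays.

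The design also asks whether 2 compounds together do more or less than the sum of their single changes. The sum was taken on the log2 scale, where adding changes means multiplying folds. A departure on this scale need not be one on the scale of unlogged signal, which was not tested. For CCND1 the single changes summed to -1.01 and the combination gave -1.37, a departure of -0.37 ± 0.11 (interval -0.61 to -0.13). For E2F2 the sum was -0.92 and the combination gave -1.15, a departure of -0.24 ± 0.14 (interval -0.55 to 0.08). For CCNE1 the sum was 1.29 and the combination gave 1.10, a departure of -0.20 ± 0.14 (interval -0.51 to 0.12). SERTAD1, at a sum of 1.24 and a combination value of 1.24, departed by 0.00 ± 0.21 (interval -0.45 to 0.45). limma called 0 of the 4 departures (adjusted p = 0.151 for CCND1, 0.525 for E2F2, 0.621 for CCNE1 and 0.997 for SERTAD1), while 0.759% of all genes were called. CCND1 alone had an unadjusted p under 0.05 (0.00583), and it was called, at an adjusted p of 0.031, with the mean-dependent robust variance, within a range of 0.031 to 0.344 over the settings tried.

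**Figure D3:**
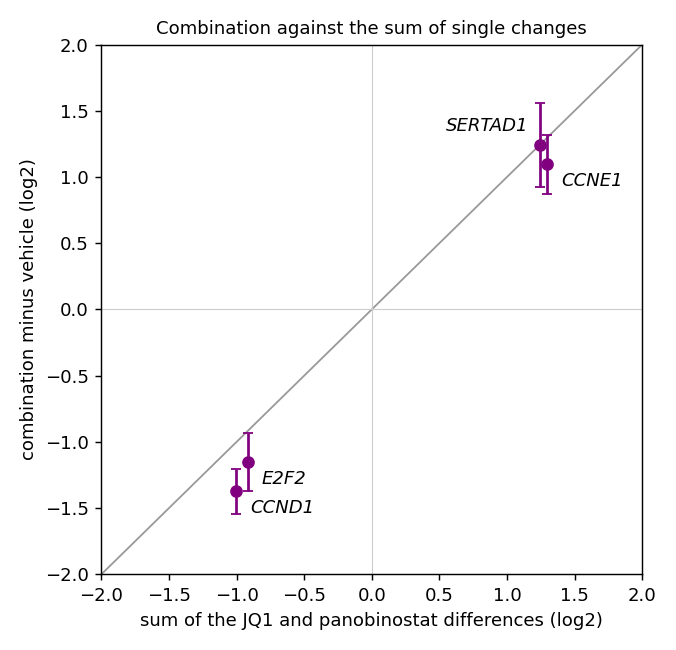
Log2 change of each gene with the combination against vehicle (vertical axis, with its 95% interval) against the sum of its JQ1 and panobinostat changes (horizontal axis, no error drawn); the diagonal marks a departure of 0. CCND1 (-1.37 against a sum of -1.01) lies farthest from the diagonal, and SERTAD1 lies on it.

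Around the 4 genes, other members of the same machinery were counted from lists chosen by role. Over all genes, 18.2% rose and 19.5% fell with the combination, 8.18% and 9.47% with JQ1, and 14.5% and 14.8% with panobinostat. With arrays centred on their medians the last split was 1441 genes higher and 2310 lower, against 2161 and 2202. All 10 listed G1 and S cyclins and their kinases were measured, CCND1 and CCNE1 among them. With the combination 4 rose and 5 fell (median -0.27, against 0.02 over all genes), with JQ1 3 rose and 1 fell (median -0.02, against 0.01) and with panobinostat 3 rose and 5 fell (median -0.13, against 0.03). With arrays centred on their medians, 1 of the rises with JQ1 was called, that of CCND3. Within the D-type cyclins, CCND3 rose by 0.64 ± 0.08 with the combination and 0.44 ± 0.08 with panobinostat, where CCND1 fell, and by 0.28 ± 0.08 with JQ1, where CCND1 did not pass the test. CCND2 was at -0.04 ± 0.12, -0.22 ± 0.12 and 0.08 ± 0.12 in the same comparisons, and none passed (adjusted p = 0.834, 0.281 and 0.698). A second, dimmer CCND2 cluster had adjusted p-values of 0.321, 0.642 and 0.49.

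CCNE2, the paralog of CCNE1, rose with the combination (0.29 ± 0.09) and with JQ1 (0.36 ± 0.09), and was at 0.07 ± 0.09 with panobinostat (adjusted p = 0.631). Both CCNE2 calls were lost when arrays were centred on their medians (adjusted p = 0.106 and 0.0542). Both kinase partners of cyclin D1 were lower with the combination and with panobinostat, and only CDK6 was called with JQ1. CDK6 fell by 0.69 ± 0.07 with the combination, 0.34 ± 0.07 with JQ1 and 0.32 ± 0.07 with panobinostat. CDK4 fell by 0.49 ± 0.07 with the combination and 0.35 ± 0.07 with panobinostat, and was at -0.16 ± 0.07 with JQ1 (adjusted p = 0.165 in limma). CDK2, the partner of cyclin E, rose by 0.36 ± 0.07 with the combination and 0.37 ± 0.07 with panobinostat. CCNA2, the S phase cyclin, fell by 0.54 ± 0.07 and 0.56 ± 0.07 in these comparisons, as did CDC25A, a phosphatase that activates CDK2 (0.54 ± 0.10 and 0.44 ± 0.10).

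Of 13 listed E2F, DP and pocket protein genes 10 were measured, E2F2 among them. With the combination 2 rose and 7 fell (median -0.36, against 0.02 over all genes), with JQ1 1 rose and 3 fell (median -0.03) and with panobinostat 2 rose and 6 fell (median -0.33). The 2 rises with the combination and with panobinostat, RB1 and the DP gene TFDP2, were not called when arrays were centred on their medians. E2F8, an atypical repressive E2F, fell by 1.05 ± 0.09 with the combination, 0.33 ± 0.09 with JQ1 and 0.36 ± 0.09 with panobinostat. Its signal was 8.33, 8.53 and 8.61 on combination arrays, against 9.64, 9.52 and 9.47 on vehicle arrays, with no overlap. E2F8 and E2F2 thus both fell in each of the 3 comparisons, E2F8 by less with JQ1 (0.33, against 0.51 for E2F2). The JQ1 call of E2F8 was lost in limma with median centring (adjusted p = 0.0569), and the genes were not tested against each other.

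Other E2F genes followed other courses. E2F3, like E2F2 an activator, fell by 0.75 ± 0.09 with the combination and 0.53 ± 0.09 with panobinostat and was at 0.13 ± 0.09 with JQ1 (adjusted p = 0.434). E2F7, the other atypical repressor, rose by 0.36 ± 0.07 with JQ1 but fell by 0.29 ± 0.07 with the combination and by 0.69 ± 0.07 with panobinostat. E2F1 was at 0.00 with the combination and was not called (adjusted p = 1). Of the pocket protein genes, RBL1 fell by 0.49 with the combination and 0.43 with panobinostat, and RBL2 fell by 0.39 with the combination and 0.38 with JQ1. The JQ1 call of RBL2 was lost with median centring (adjusted p = 0.0543), which left 1 of the list's 3 falls with JQ1, that of E2F2.

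**Figure D4:**
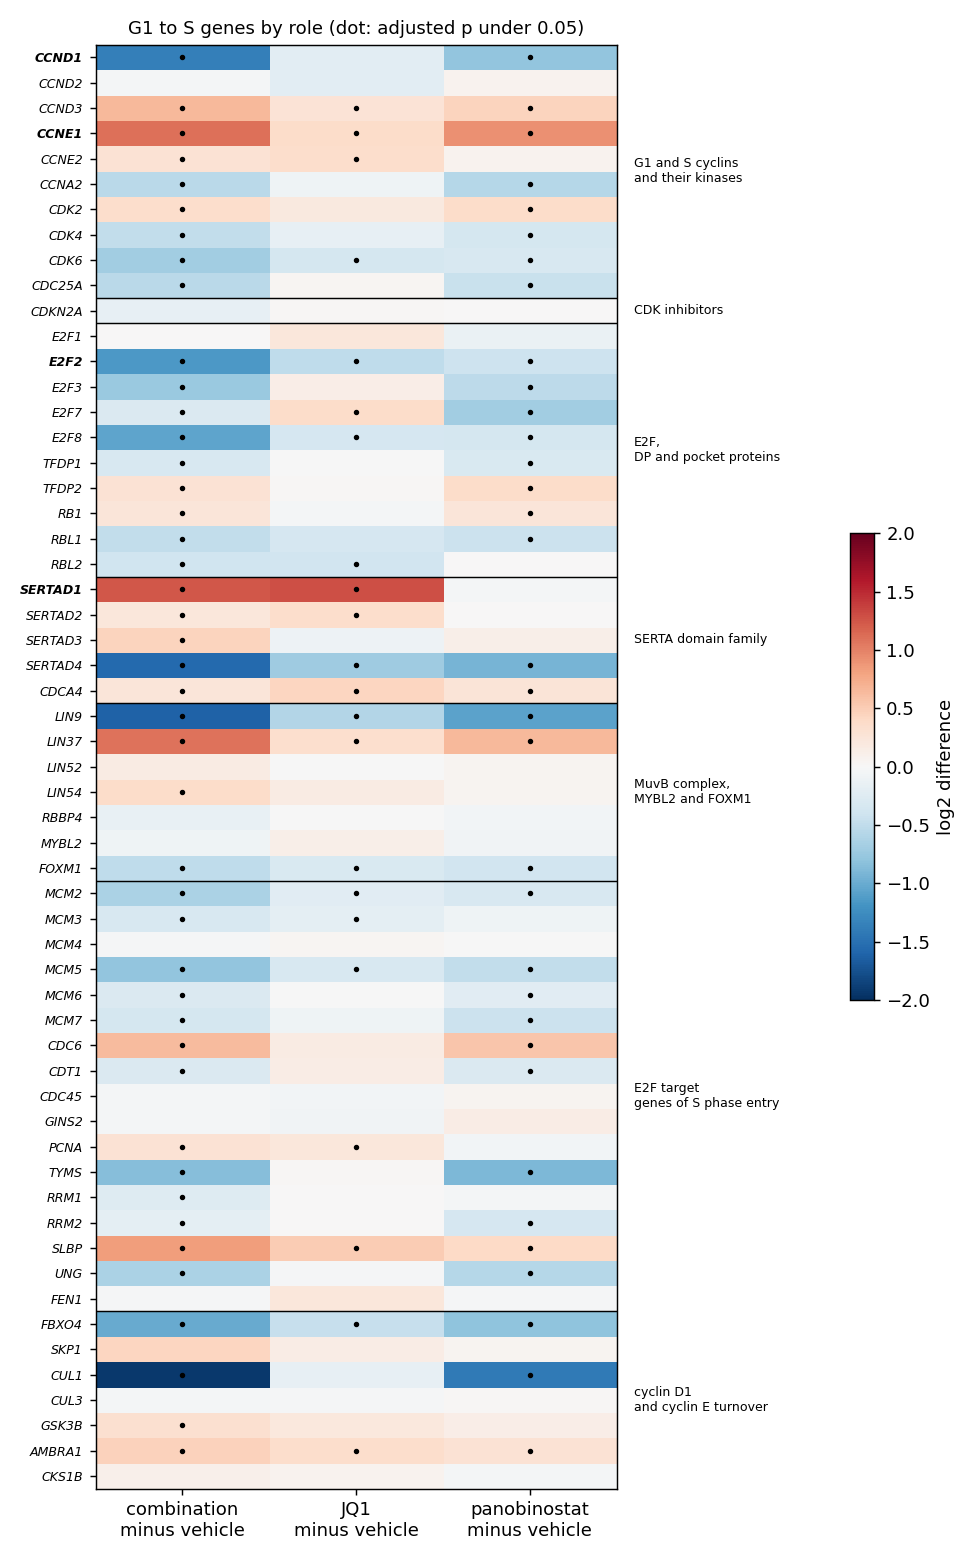
Log2 differences from vehicle (colour, -2 to 2) for the measured genes of the G1 to S lists, in rows by role, with the combination, JQ1 and panobinostat as columns; a dot marks an adjusted p under 0.05 and the 4 genes of interest are in bold. CCND1 and CCNE1 carry opposite colours within 1 list, SERTAD1 and SERTAD4 do so within another, and CUL1 shows the deepest fall (-1.93 with the combination).

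The 5 genes of the SERTA domain family were all measured. With the combination 4 rose and 1 fell, with JQ1 3 rose and 1 fell, and with panobinostat 1 rose and 1 fell (medians 0.24, 0.35 and 0.01, against 0.02, 0.01 and 0.03 over all genes). With arrays centred on their medians 2 rose with the combination and 0 with panobinostat. SERTAD4 went against SERTAD1: its signal was 7.06, 7.41 and 7.07 on combination arrays, against 8.97, 8.80 and 8.45 on vehicle arrays. It fell by 1.56 ± 0.14 with the combination, 0.70 ± 0.14 with JQ1 and 0.92 ± 0.14 with panobinostat. SERTAD2 rose by 0.35 ± 0.08 with JQ1 and was at 0.01 ± 0.08 with panobinostat (adjusted p = 0.923), and SERTAD3 rose by 0.44 ± 0.07 with the combination. CDCA4 rose by 0.43 ± 0.07 with JQ1, 0.24 ± 0.07 with the combination and 0.26 ± 0.07 with panobinostat. Its calls with the combination and panobinostat were lost in limma with median centring (adjusted p = 0.0809 and 0.102).

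Among 24 listed E2F target genes of S phase entry 17 were measured. With the combination 3 rose and 10 fell (median -0.26, against 0.02 over all genes), with JQ1 2 rose and 3 fell (median 0.01) and with panobinostat 2 rose and 8 fell (median -0.08). Median centring left 1 rise and 1 fall with JQ1, as the calls of PCNA (adjusted p = 0.0784), MCM2 (0.104) and MCM3 (0.146) were lost. The largest falls with the combination were in TYMS, the thymidylate synthase (-0.86), MCM5 (-0.79) and MCM2 (-0.63), which encode subunits of the replicative helicase, and UNG, a uracil glycosylase (-0.64). SLBP, which binds histone mRNA (0.83), CDC6, which loads that helicase (0.64), and PCNA, the polymerase clamp (0.28), rose. TYMS was at -0.90 with panobinostat and at 0.02 with JQ1 (not called). Of the 7 listed CDK inhibitor genes only CDKN2A was measured here, at -0.17 with the combination, 0.02 with JQ1 and 0.00 with panobinostat, none called.

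Genes with the most similar course to each of the 4 were found by Pearson correlation over the 12 arrays, among 6946 other protein-coding genes at or above the median gene's signal. The correlations describe shared group differences and carry no p. For CCND1 they were DUSP4 (0.992), a phosphatase of MAP kinases, MSL1 (0.992), a scaffold of a histone acetyltransferase complex, and NMT1 (0.991), an N-myristoyltransferase. MSL1 fell by 1.89 with the combination, 1.30 with panobinostat and 0.40 with JQ1, and DUSP4 by 1.08 and 0.57 with the first 2 of these, with -0.11 for JQ1 not called (adjusted p = 0.313). For CCNE1 they were TMEM127 (0.987), TAB3 (0.987) and HSPA1B (0.986), an HSP70 gene with a near-identical copy whose probes may not be told apart. TMEM127 rose by 0.67 with the combination and 0.57 with panobinostat. For E2F2 they were PRMT6 (0.996), an arginine methyltransferase of histones, SNAI2 (0.985), a neural crest transcription factor, and DDX47 (0.985), an RNA helicase. PRMT6 had values close to those of E2F2, at -1.14 with the combination, -0.50 with JQ1 and -0.43 with panobinostat. For SERTAD1 they were ZNF697 (0.965), PGM1 (0.960) and ZXDC (0.958), and all 3 rose less than SERTAD1 did with JQ1, by 0.39, 0.25 and 0.53.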

How the data were processed

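Total RNA was labelled as biotinylated cRNA, per the labels' protocols. The deposited table of 53617 clusters by 12 arrays holds values taken as log2 signal intensities. The submitters' processing notes list MAS5 and affy with no role; how background and normalization were done, and the genome build, is not given in the sources used here. Values carry no detection call, and precision is limited by the number of arrays. A probe table named 16098 clusters with 1 gene symbol each and 37519 with none. The brightest cluster by mean stood for each symbol, giving 14884 genes; all 4 genes described have 1 cluster.

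Differences were fitted with limma 3.58.1 in R 4.3.3 (lmFit, then eBayes; group means as coefficients, 12 arrays, 8 residual and 3.46 prior degrees of freedom), two-sided, Benjamini-Hochberg adjusted over 14884 genes, and called under 0.05. The fit was tested on simulated data. Same-numbered arrays deviated together for JQ1 with vehicle (r from 0.096 to 0.201) and for the combination with panobinostat (0.083 to 0.236). In the other pairs of groups they mostly ran against each other, down to -0.693. The main fit had no replicate term, and a replicate block was among the alternatives. The genes and lists were chosen with earlier results of these data known. Genes named are the 4 genes, for each list and comparison up to 4 called in each direction by size of change plus up to 2 not called, and the 3 closest genes by correlation. Alternatives were median centring, quantile normalization, a filter at the 40th percentile of mean signal, a replicate block, cluster means, all clusters in the fit, only the groups compared, eBayes with trend and robust, and each array left out in turn. Promoters came from a RefSeq table.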

Additional observations from a re-analysis of the deposited data

How the results depend on the processing

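Of 556 values of the 4 genes under other settings, 533 kept their direction and their side of the threshold, 7 lost a call, 3 gained one and 13 changed sign, all of the last for SERTAD1 differences that were not called. CCNE1 with JQ1 was not called after median centring (0.381), with a replicate block (0.375, adjusted p = 0.0566), or with all clusters in the fit (0.375, adjusted p = 0.0769); without single arrays it ran from 0.302 to 0.469. CCND1 with JQ1 was called without dim genes and with trend and robust eBayes (-0.210 in both), and the latter called the CCND1 interaction (-0.368). SERTAD1's interaction was 0.0082 after median centring and 0.036 after quantile normalization, and -0.143 to 0.118 without single arrays. Without single arrays, SERTAD1 ran from -0.186 to 0.075 for the combination against JQ1 and from -0.106 to 0.071 for panobinostat against vehicle. Of these, combination replicate 1 and JQ1 replicate 1 turned the first positive, and vehicle replicate 2 and panobinostat replicate 2 the second.

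The count of genes called for the interaction, 113, was 41 after median centring, 313 after quantile normalization, 259 without dim genes, 48 with a replicate block, 12 of all clusters, 324 with trend and robust eBayes, and 28 to 86 without single arrays, lowest without combination replicate 2. Against vehicle, 6707 of all clusters were called for panobinostat (4363 genes) and 9587 for the combination (5614 genes). For the combination against panobinostat, 2184 genes were called, and 1325 when only those arrays were fitted. Median centring moved the split for panobinostat to 1441 higher and 2310 lower, against 2161 and 2202, and for JQ1 against panobinostat to 1847 and 1088, against 1729 and 1732. The replicate block ended the CCNE1 call above and changed no other call of the 4 genes. By their deviations from the group means, 0 of 12 arrays were most like an array of the same number. Arrays numbered 1 were still related: vehicle ran against panobinostat (r = -0.693) and the combination (-0.648), and JQ1 against both (-0.479 and -0.509). Within that number, the combination went with panobinostat (0.236) and JQ1 with vehicle (0.201). Vehicle replicate 1 also had the lowest array median (6.119) and panobinostat replicate 1 the highest (6.292). For numbers 2 and 3, r ran from -0.183 to 0.191. The causes of these shifts were not tested. Depth is not defined for arrays, and signal over background is unknown.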

Other observations

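The MuvB complex, which together with pocket proteins represses and with MYBL2 and FOXM1 activates cell cycle genes, had all 7 listed genes measured. With the combination 2 rose and 2 fell (median -0.09, against 0.02 over all genes). With JQ1 1 rose and 2 fell (median -0.01, against 0.01), and with panobinostat 1 rose and 2 fell (median -0.05, against 0.03). Of all genes, 37.7%, 17.6% and 29.3% were called in these comparisons. Whether the list differed from all genes was not tested. LIN54, the DNA-binding subunit, rose by 0.37 with the combination and was not called with median centring (adjusted p = 0.0608). The subunit genes LIN9 and LIN37 went opposite ways. LIN9 had 7.49, 7.49 and 7.69 on combination arrays, against 9.21, 9.15 and 9.14 on vehicle arrays, and fell by 1.61 ± 0.08 with the combination, 0.58 ± 0.08 with JQ1 and 1.07 ± 0.08 with panobinostat. LIN37 had 9.54, 9.66 and 9.54 on combination arrays, against 8.58, 8.47 and 8.45 on vehicle arrays, and rose by 1.08 with the combination, 0.33 with JQ1 and 0.64 with panobinostat. FOXM1 fell by 0.50, 0.31 and 0.38 in the same comparisons, and MYBL2 was at -0.09 with the combination and not called.

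Among 11 listed genes for turnover of cyclins D1 and E, 7 were measured. With the combination 2 rose and 2 fell (median 0.11, against 0.02 over all genes). With JQ1 1 rose and 1 fell (median 0.07, against 0.01), and with panobinostat 1 rose and 2 fell (median 0.03, against 0.03). The shares of all genes called were 37.7%, 17.6% and 29.3%, and the list was not tested against them. CUL1, the scaffold of the SCF ubiquitin ligases that degrade cyclin E, had 8.64, 8.78 and 8.64 on combination arrays, against 10.65, 10.64 and 10.54 on vehicle arrays. It fell by 1.93 ± 0.07 with the combination and 1.42 ± 0.07 with panobinostat and was at -0.16 ± 0.07 with JQ1 (adjusted p = 0.172). FBXO4, an F-box protein reported to recognise cyclin D1, fell by 1.01 with the combination, 0.47 with JQ1 and 0.80 with panobinostat at a dim signal. AMBRA1, the substrate receptor that targets D-type cyclins, rose by 0.46, 0.36 and 0.29 in the same comparisons, and its panobinostat call was lost with median centring (adjusted p = 0.101). Protein levels were not measured.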
